A study of Homo sapiens with 12 samples.

Results

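The mevalonate arm of sterol synthesis was followed in T47D cells, an established line from a human estrogen receptor-positive breast carcinoma, through 9 genes chosen by symbol from the 25370 genes of an RNA-seq count table: ACAT2, HMGCS1, MVK, PMVK, MVD, IDI1, FDPS, GGPS1 and FDFT1. They encode enzymes on the way from acetyl-CoA to squalene. The study asked whether anastrozole, a nonsteroidal aromatase inhibitor that the study regards as also a ligand of estrogen receptor α (ERα), regulates the same genes as 17β-estradiol (E2). The 4 groups received vehicle, 10 nM anastrozole, 0.1 nM E2, or both agents at these doses, and each had 3 libraries lettered a, b and c. All 4 groups shared the same line and the same preparation, 48 h in 5% charcoal-stripped FBS followed by 24 h without serum. The labels give 12 h of treatment and the methods 24 h, and this difference is not settled here. The methods describe gene expression data in general as coming from 3 independent experiments, and the labels do not say whether the libraries of a group were separate cultures. Where they were not, the p-values measure only a technical spread.

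The mevalonate pathway turns acetyl-CoA into isoprenoid diphosphates and supplies the carbon of cholesterol, of the farnesyl and geranylgeranyl groups attached to small GTPases, and of dolichol and ubiquinone. Its genes are classical targets of SREBP2, a transcription factor that is released from its membrane by cleavage when sterols are low. SREBP2 commonly acts together with NF-Y, which binds CCAAT boxes. Cholesterol is also the precursor of estrogens.

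Between 9914253 reads (anastrozole b) and 17009776 reads (E2 b) were counted on genes per library, and a count of 3 corresponded to between 0.176 and 0.303 CPM, the count scaled to a common library total with TMM factors. The 9 genes were far above that floor in all libraries. Markers of luminal breast epithelium fitted the label: 10 of 10 were detected, between 152 and 3150 CPM, with ESR1 at 163 to 188 and PGR at 1950 to 2350 CPM. Of 17 markers of other cells, 8 had at most 3 counts in any library (KRT5 of basal cells, COL1A2 and COL3A1 of fibroblasts, PTPRC and CD3E of leukocytes, PECAM1 and CDH5 of endothelium and LEP of adipocytes). The other 9 had more in at least 1 library, with up to 9 counts for KRT14, 6 for PDGFRB and 8 for VWF, 12 to 31 counts for TP63, 3 to 13 for ADIPOQ and 8 to 26 for PLIN1, and at 80 to 99.9 CPM for COL1A1, 7.85 to 12.5 for ACTA2 and 3.12 to 7.14 for CD68. Of the markers of other cells, CD68 was higher with anastrozole (6.003 ± 0.986 CPM against 3.705 ± 0.622 in vehicle, SD, n = 3 each, adjusted p = 0.0051) and with E2 (5.437 ± 0.363 CPM, adjusted p = 0.015), and ACTA2 was higher with the combination (11.55 ± 0.896 CPM against 8.868 ± 0.953, adjusted p = 0.022), while the others did not pass against vehicle. Of the 10 luminal markers, 5 were lower with E2, 1 with anastrozole and 0 with the combination. With E2, 5.95% of all genes tested were lower, and 646 of the 3954 genes at least as abundant as the least abundant of the 9 genes studied. The part of these moves in the results was not tested. The level of an mRNA in bulk RNA cannot tell fewer expressing cells from less RNA per cell.

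Promoter sequence from RefSeq (GRCh38.p14) was used for 7 of the 9 genes, all but ACAT2 and FDFT1. The 250 bases before each annotated start were searched on both strands for the NF-Y box (ATTGG, or CCAAT on the other strand), a sterol regulatory element core (TCACNCCAC), a full palindromic estrogen response element, an E-box (CACGTG) and a GC box (GGGCGG). All 7 genes had a GC box, in 11 of 12 windows against 42.6% of all windows. The NF-Y box was found in 6 of the 7 genes, PMVK being the exception. By window, 7 of 12 (58.3%) held at least 1 copy against 32% of all 35116 windows, and 4 of 12 (33.3%) held at least 3 copies against 2.93%. Some of the 12 windows belong to the same gene and overlap. No window of the 7 genes held the sterol regulatory core, the estrogen response element or the E-box as spelled here, letters that occurred in 0.883%, 0.0399% and 6.34% of all windows. These are matches of letters in a short window, and no binding was measured. The windows of MVD, FDPS and HMGCS1, genes on which the comparisons below turn, are shown 5′ to 3′ up to the base before the start, with CCAAT boxes on either strand in capitals. They lie at chr16:88663092-88663341 (minus strand), chr1:155308616-155308865 (plus strand) and chr5:43313413-43313662 (minus strand), with 3, 3 and 2 boxes. HMGCS1 has 2 windows, and the other, not shown, held no box. IDI1, also called below and not shown, has 3 windows with 5 boxes in all. MVK, not shown, held 5 boxes, the most of any window of the 7 genes.
MVD: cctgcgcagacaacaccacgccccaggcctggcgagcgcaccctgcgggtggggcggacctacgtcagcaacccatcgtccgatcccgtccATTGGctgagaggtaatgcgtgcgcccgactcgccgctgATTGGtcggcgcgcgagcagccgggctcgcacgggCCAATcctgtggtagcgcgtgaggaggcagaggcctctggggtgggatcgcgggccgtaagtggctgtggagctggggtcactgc
FDPS: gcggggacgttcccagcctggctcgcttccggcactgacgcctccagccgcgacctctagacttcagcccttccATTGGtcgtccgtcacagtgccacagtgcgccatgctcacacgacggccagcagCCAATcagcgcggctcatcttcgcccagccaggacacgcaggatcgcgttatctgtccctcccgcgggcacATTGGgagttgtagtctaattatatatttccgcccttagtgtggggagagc
HMGCS1: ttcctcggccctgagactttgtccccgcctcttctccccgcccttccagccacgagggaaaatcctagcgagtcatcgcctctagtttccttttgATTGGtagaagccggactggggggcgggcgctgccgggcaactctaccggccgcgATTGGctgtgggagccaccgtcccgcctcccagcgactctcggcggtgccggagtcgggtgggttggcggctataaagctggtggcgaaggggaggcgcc

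In vehicle-treated cells the pathway was strongly expressed along most of its length. Per kilobase of annotated exon (GENCODE 44 on GRCh37), the level was highest for IDI1 (122.5 CPM/kb), followed by FDPS (111.4), HMGCS1 (86.88), PMVK (71.13), FDFT1 (68.49), ACAT2 (41.42), MVD (39.43), GGPS1 (28.5) and MVK (7.627). Libraries of PMVK and FDFT1 overlapped on this scale, as did those of ACAT2 and MVD, and all other neighbours in the order were separated in every vehicle library. IDI1 stood at percentile 99 and MVK at percentile 70.6 of 19627 genes with a known length. The length counts every annotated exon base, and for MVK it is 9018 bases, so a gene with many long isoforms receives a low level on this scale.

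Summed over the 9 genes, the vehicle libraries held 2447, 2387 and 2390 CPM, the anastrozole libraries 2241, 2194 and 2073, the E2 libraries 2475, 2472 and 2467, and the libraries with both agents 2281, 2231 and 2203. Both groups that received anastrozole thus lay below every vehicle and E2 library in this sum. The sum is carried by the most abundant genes, and the single genes did not all follow it. The plot of CPM by library shows each gene.

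**Figure D1:**
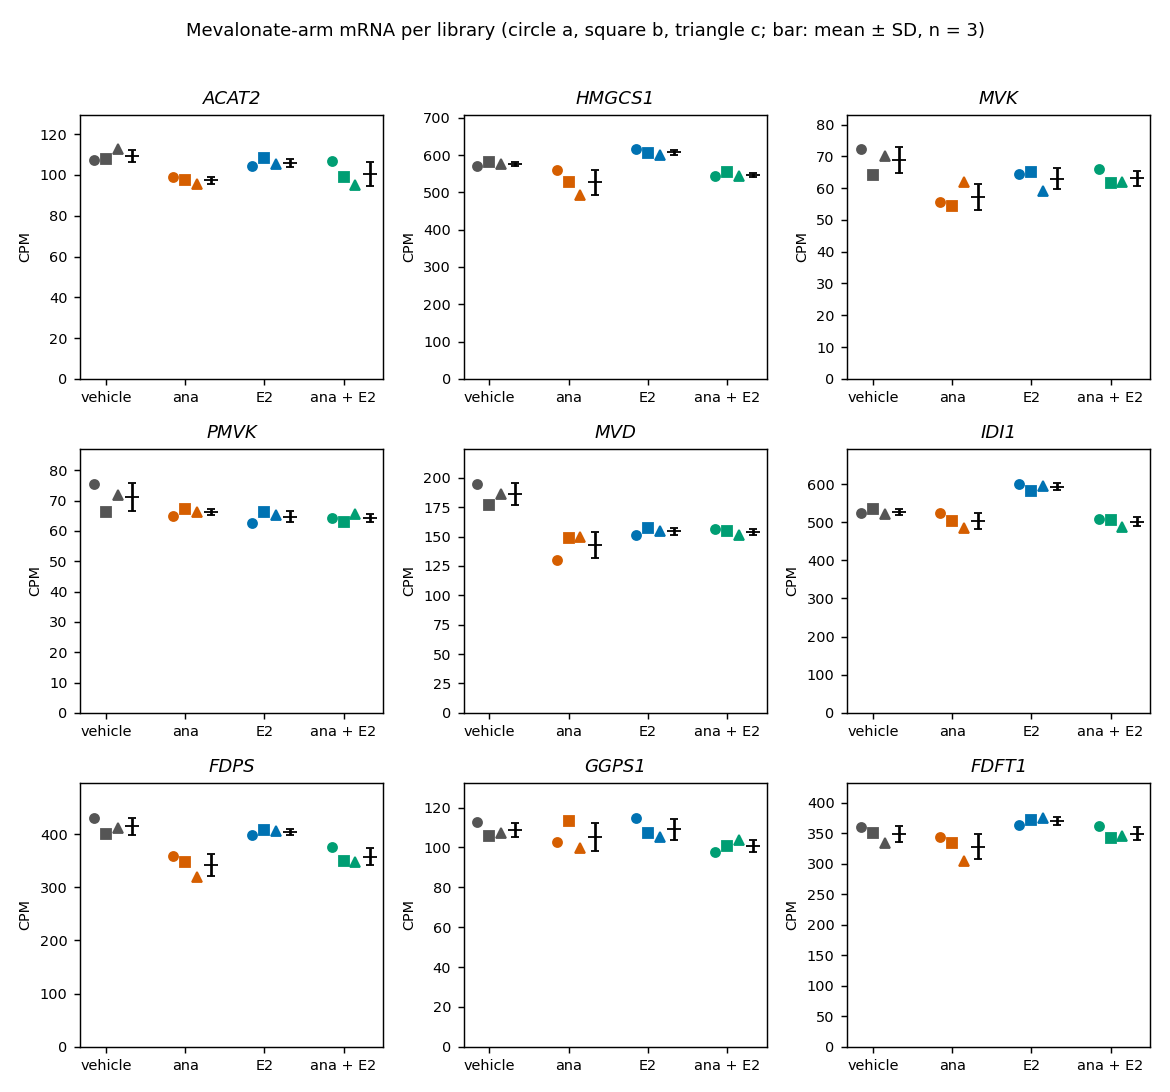
CPM (TMM-scaled, linear axis from 0) of the 9 genes in each of the 12 libraries, with circles, squares and triangles for libraries a, b and c and the mean ± SD (n = 3) beside each group. MVD was lower in all 9 treated libraries than in any vehicle library, whereas IDI1 was higher in the 3 E2 libraries than in the other 9.

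Early steps, from acetyl-CoA to mevalonate. ACAT2, the cytosolic thiolase that condenses acetyl-CoA into acetoacetyl-CoA (chr6:160183077-160200144, plus strand, 46.1% GC over its exons), measured 107.5, 108 and 112.5 CPM in vehicle libraries a, b and c. It measured 99.17, 97.42 and 95.38 with anastrozole, 104.2, 108.2 and 105.3 with E2, and 107, 99.04 and 95.15 with both. The anastrozole libraries were all below the vehicle libraries and E2 overlapped vehicle. ACAT2 shares 17.2% of its exon bases with TCP1 and 5.04% with SOD2, both on the opposite strand, and the strand setting of the counting is not stated.

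HMGCS1 (chr5:43287572-43313614, minus strand, 40.3% GC) encodes the cytosolic HMG-CoA synthase. Its CPM was 570.1, 580.3 and 576.8 in vehicle, 560.2, 529 and 491.8 with anastrozole, 615.1, 605.3 and 601.3 with E2, and 544, 553.6 and 544.6 with both agents. E2 libraries were above, and both anastrozole-containing groups below, every vehicle library, with anastrozole c the lowest of all 12. A long noncoding RNA gene on the opposite strand that has no row in the table covers 37.7% of the HMGCS1 exon bases.

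From mevalonate to isopentenyl diphosphate. MVK, mevalonate kinase (chr12:110011060-110035930, plus strand, 56.0% GC), was the least abundant member per length. It measured 72.15, 64.18 and 70.01 CPM in vehicle, 55.61, 54.37 and 61.87 with anastrozole, 64.34, 65.22 and 59.15 with E2, and 65.89, 61.73 and 61.77 with both. Only the anastrozole group was separated from vehicle. PMVK, which adds the second phosphate (chr1:154897216-154909195, minus strand, 59% GC), ranged from 66.38 to 75.63 CPM in vehicle and from 62.69 to 67.1 over the 9 treated libraries. The spread of its vehicle libraries, 71.27 ± 4.65 CPM (SD, n = 3), was wider than that of any treated group.

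MVD (chr16:88718343-88729569, minus strand) encodes the decarboxylase that makes isopentenyl diphosphate, the unit from which all isoprenoids are built, and with 63.0% its exons had the highest GC content of the 9 genes. MVD measured 195.2, 176.6 and 186.2 CPM in vehicle, 130, 148.6 and 149.5 with anastrozole, 151.2, 157.6 and 154.5 with E2, and 156.3, 154.4 and 151.1 with both. Every treated library was below every vehicle library, and anastrozole a was the lowest.

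From isopentenyl diphosphate to squalene. IDI1, the isomerase that makes dimethylallyl diphosphate (chr10:1085092-1095059, minus strand, 43.1% GC), measured 522.9, 535.5 and 520.2 CPM in vehicle, 524.8, 502.8 and 483.5 with anastrozole, 601.4, 582.8 and 595.4 with E2, and 509.1, 506.8 and 488.3 with both. The E2 libraries stood above all others, and the libraries with both agents lay below vehicle. IDI2-AS1 overlaps 14.97% of the IDI1 exon bases on the opposite strand.

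FDPS, farnesyl diphosphate synthase and the target of nitrogen-containing bisphosphonates (chr1:155278539-155290457, plus strand, 54.98% GC), measured 431, 400 and 411.7 CPM in vehicle and 398, 407.4 and 405.7 with E2. It measured 359.2, 347.3 and 319.8 with anastrozole and 375.1, 349.9 and 347.6 with both. The 6 libraries that received anastrozole were all below the other 6. RUSC1-AS1 overlaps 18.6% of the FDPS exon bases on the opposite strand.

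At the branch point after farnesyl diphosphate, GGPS1, which makes the geranylgeranyl diphosphate used to prenylate small GTPases such as the Rab proteins (chr1:235490665-235507847, plus strand, 43.4% GC), ranged from 97.79 to 115 CPM over the 12 libraries. Its group means were 108.6 ± 3.56 CPM in vehicle, 105.2 ± 6.96 with anastrozole, 109.1 ± 5.19 with E2 and 100.8 ± 2.97 with both (SD, n = 3 each). Another protein-coding gene without a row in the table covers 37.3% of its exon bases on the same strand. FDFT1, squalene synthase and the step committed to sterols (chr8:11653082-11696904, plus strand, 50.5% GC), measured 359.9, 349.9 and 333.9 CPM in vehicle, 344.1, 333.9 and 304.6 with anastrozole, 362.7, 371.8 and 375.7 with E2, and 361.8, 341.4 and 344.8 with both. E2 was above vehicle in every library, and the anastrozole group overlapped vehicle.

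Anastrozole alone against vehicle. MVD, FDPS, MVK and ACAT2 fell, and no member rose. MVD fell by 23.4% (log2 fold change -0.39, SE 0.05, adjusted p = 2.5e-12), FDPS fell by 17.4% (-0.28, SE 0.04, adjusted p = 2e-07), MVK fell by 16.7% (-0.26, SE 0.06, adjusted p = 0.0023) and ACAT2 fell by 10.9% (-0.17, SE 0.05, adjusted p = 0.047), by edgeR's quasi-likelihood test. These are 4 of 9 genes, where 3.67% of the 21132 genes tested passed in either direction and 2.27% were lower. Highly expressed genes pass more often, and of the 3954 genes at least as abundant as the lowest member 11% passed. All 9 log2 fold changes were negative, with a median of -0.13 against 0.00 over all genes tested. HMGCS1 (-0.13, 95% interval -0.21 to -0.05, adjusted p = 0.058) was among the 5 genes without overlap between the groups, together with the 4 that passed; 17.7% of all genes had no overlap. PMVK, IDI1, GGPS1 and FDFT1 had log2 fold changes between -0.11 and -0.05 with adjusted p from 0.32 to 0.72.

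The 4 calls differed in firmness. MVD and FDPS passed without any single library and under 8 of 9 other settings, the exception being limma-voom (adjusted p = 0.081 and 0.083), which called 15 genes in all and none of the 9. HMGCS1 passed without anastrozole a (-0.17, adjusted p = 0.019) and under 4 of the 9 other settings. MVK did not pass without vehicle a (adjusted p = 0.063), vehicle c (0.057) or anastrozole b (0.074), and ACAT2 did not pass once any library was left out (0.051 to 0.33).

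E2 alone against vehicle. IDI1 rose by 12.7% (log2 fold change 0.17, SE 0.03, adjusted p = 8.7e-07), FDFT1 rose by 6.4% (0.09, SE 0.03, adjusted p = 0.049) and MVD fell by 16.9% (-0.27, SE 0.04, adjusted p = 2.1e-10). Of all genes tested, 12% passed (6.06% higher and 5.95% lower), and of the genes at least as abundant as the lowest member 33.5% passed, so 3 of 9 is near the share of comparably abundant genes. HMGCS1 was 0.08 (95% interval 0.02 to 0.14, adjusted p = 0.075) and was higher in every E2 library, and limma-voom called it (adjusted p = 0.048). PMVK (-0.14, adjusted p = 0.055) and MVK (-0.13, adjusted p = 0.087) passed only without vehicle b or, for PMVK, with other scaling factors. Groups did not overlap for 5 genes (HMGCS1, IDI1 and FDFT1 higher, PMVK and MVD lower), against 25.4% of all genes. FDPS (95% interval -0.10 to 0.03), ACAT2 (-0.13 to 0.04) and GGPS1 (-0.08 to 0.09) did not pass. The FDFT1 call was lost without vehicle c (adjusted p = 0.42), E2 a (0.058), E2 b (0.16) or E2 c (0.22) and under 6 of 9 other settings.

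Anastrozole plus E2 against vehicle. MVD fell by 17.2% (log2 fold change -0.27, SE 0.04, adjusted p = 1.3e-09) and FDPS fell by 13.6% (-0.21, SE 0.03, adjusted p = 1.5e-07), and both passed without any single library and under all 9 other settings. These are 2 of 9 genes, where 5.04% of all genes passed and 2.33% were lower (12.9% passed among comparably abundant genes). The other members, apart from FDFT1 (0.01, 95% interval -0.06 to 0.07), had log2 fold changes between -0.15 and -0.07, with adjusted p from 0.059 for PMVK to 0.28 for IDI1. In 7 of 9 genes all libraries with both agents were below all vehicle libraries, against 8.83% of all genes. Without vehicle b, MVK (-0.17, adjusted p = 0.038) and PMVK (-0.20, adjusted p = 0.008) also passed, PMVK did with DESeq2's size factors in edgeR (-0.15, adjusted p = 0.047), and without library a of the combination ACAT2 did (-0.17, adjusted p = 0.015). The 3 comparisons share their vehicle libraries. Over them, edgeR as fitted here called 6 members at least once, MVD in all 3, and HMGCS1, PMVK and GGPS1 in none, and each of these 3 genes was called in at least 1 comparison under another setting.

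**Figure D2:**
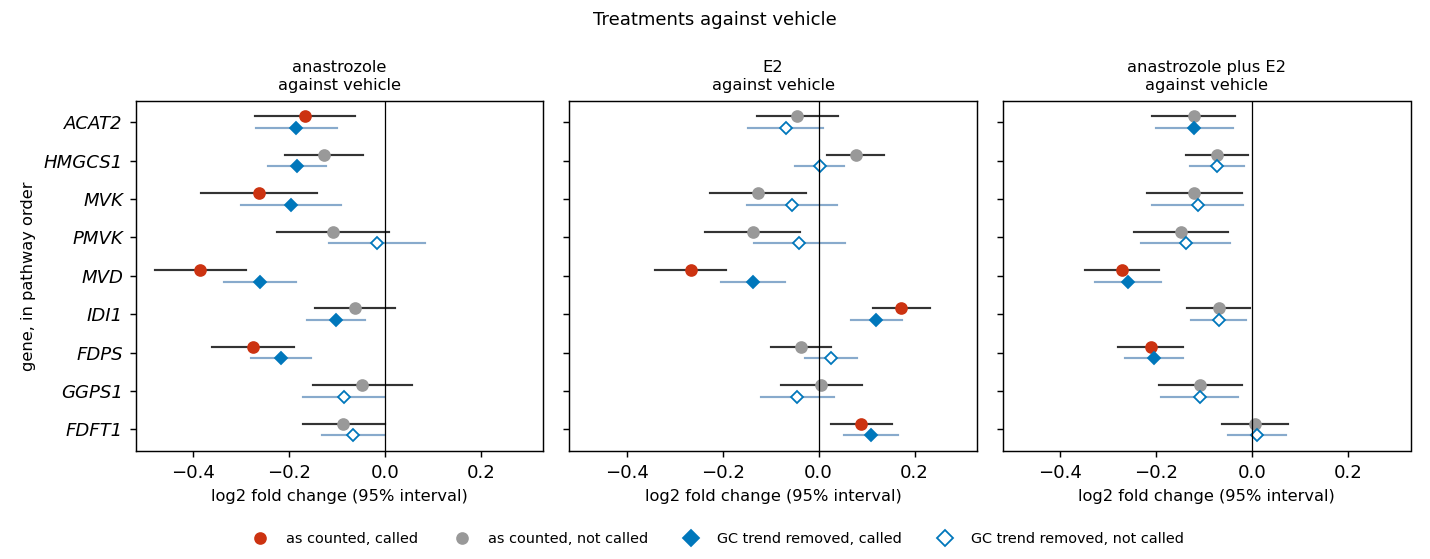
Log2 fold change against vehicle (x axis, with 95% interval) for the 9 genes in pathway order, as counted (circles, red where adjusted p was under 0.05) and after correction of each library for GC content (diamonds, filled where under 0.05). With anastrozole all circles lie left of 0, from -0.39 for MVD to -0.05 for GGPS1, whereas with E2 IDI1, FDFT1 and HMGCS1 lie to the right of 0, the last not called, and GGPS1 lies at 0.01.

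Anastrozole against E2. With anastrozole, FDPS fell by 14.9% relative to E2 (log2 fold change -0.23, SE 0.04, adjusted p = 1.1e-06), IDI1 fell by 14.7% (-0.23, SE 0.04, adjusted p = 4.9e-07), HMGCS1 fell by 12.8% (-0.20, SE 0.04, adjusted p = 3.4e-05) and FDFT1 fell by 11.1% (-0.17, SE 0.04, adjusted p = 0.0024). That was 4 of 9 genes, where 1.33% of all genes passed, 0.705% lower, and 4.86% passed among comparably abundant genes. PMVK differed by 0.04 (adjusted p = 0.92). In 6 genes, these 4 with ACAT2 and MVD, every anastrozole library was below every E2 library, against 7.21% of all genes. MVD, which was below vehicle in both groups, differed by -0.11 (95% interval -0.20 to -0.03, adjusted p = 0.28), and without anastrozole c it passed (-0.15, adjusted p = 0.016). The FDFT1 call was lost without E2 b (adjusted p = 0.092) or E2 c (0.088), and with limma-voom both FDFT1 (0.17) and HMGCS1 (0.1) were lost.

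Adding anastrozole to E2. IDI1 fell by 15.4% (log2 fold change -0.24, SE 0.03, adjusted p = 2e-12), FDPS fell by 11.4% (-0.17, SE 0.03, adjusted p = 5.2e-06) and HMGCS1 fell by 9.83% (-0.15, SE 0.03, adjusted p = 7.2e-05). These 3 of 9 compare with 6.74% of all genes (3.51% lower) and with 23.2% of comparably abundant genes. The 3 calls held without each library in turn, while without library a of the combination ACAT2 (-0.13, adjusted p = 0.048) and FDFT1 (-0.11, adjusted p = 0.0058) passed as well, and without E2 c GGPS1 did (-0.14, adjusted p = 0.045). MVD did not pass (-0.00, 95% interval -0.07 to 0.07).

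Adding E2 to anastrozole. None of the 9 genes passed, where 2.9% of all genes did. At an unadjusted p under 0.05 there were 3 genes, MVK (0.14), MVD (0.11) and FDFT1 (0.09), all positive, and neither DESeq2 nor limma-voom called any. Without anastrozole c, MVK (0.20, adjusted p = 0.025) and MVD (0.15, adjusted p = 0.013) passed. IDI1, which rose with E2 given alone, had a log2 fold change of -0.01 here (95% interval -0.09 to 0.07).

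**Figure D3:**
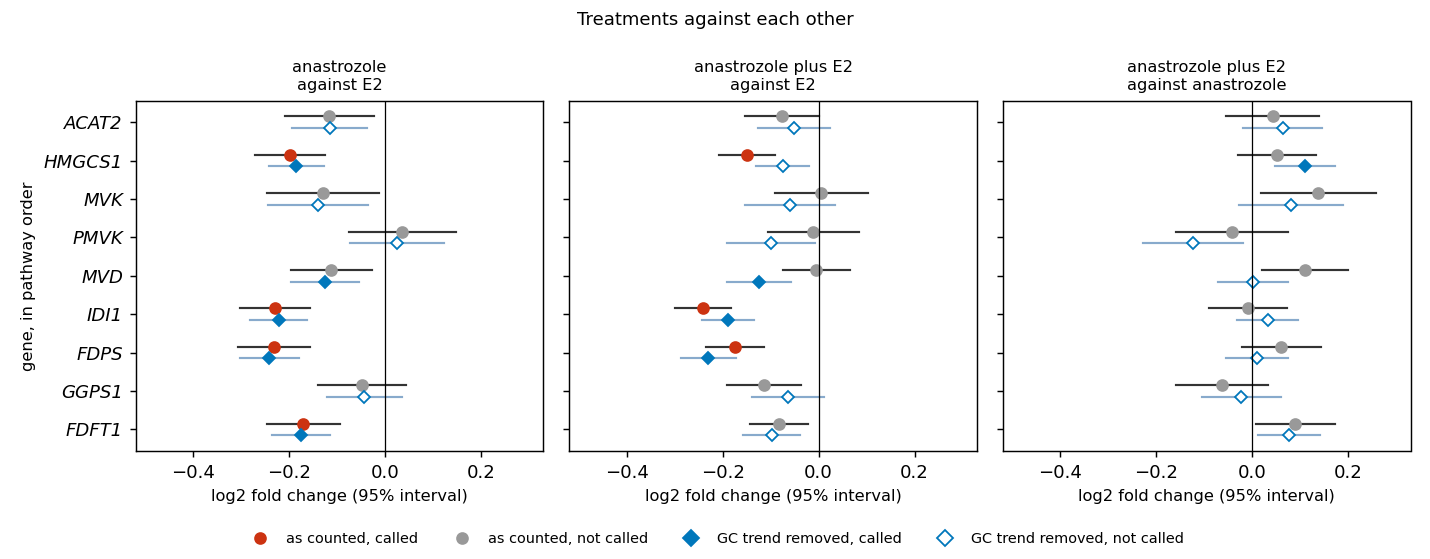
Log2 fold change between treatments (x axis, 95% interval) for the 9 genes, as counted (circles) and with the GC trend removed (diamonds), with calls colored or filled. FDPS and IDI1 lie near -0.2 in both comparisons with E2, and no circle is called when E2 was added to anastrozole.

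Whether anastrozole acted differently with and without E2 was tested as an interaction over all 12 libraries. It passed for 3 genes, where 10.9% of all genes and 31.5% of comparably abundant ones passed, so 3 of 9 is near the latter share. The effect of anastrozole was more positive in the presence of E2 for MVD (interaction 0.38, SE 0.06, adjusted p = 5.4e-08) and MVK (0.27, SE 0.08, adjusted p = 0.0077), and more negative for IDI1 (-0.18, SE 0.05, adjusted p = 0.0069). The MVK call was lost without vehicle a (adjusted p = 0.053), E2 c (0.066) or library a of the combination (0.057), and with limma-voom (0.056). With the GC trend removed none of the 9 passed, at values of 0.14, 0.14 and -0.09 and adjusted p of 0.12, 0.38 and 0.31 in the same order, where 2.6% of all genes did.

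Fold changes moved with GC content in most comparisons. Over 10860 genes averaging at least 3 log2 CPM, Spearman's rho between the GC content of the exons and the log2 fold change was -0.53 for anastrozole, -0.55 for E2 and -0.03 for the combination against vehicle, 0.11 for anastrozole against E2, 0.68 for adding anastrozole to E2 and 0.57 for adding E2 to anastrozole. Within the 9 genes rho was -0.60, -0.83 and -0.77 against vehicle, a description over genes that share the same libraries. MVD, with the highest GC content, had the most negative log2 fold change in each of these 3 comparisons. The calls were therefore measured again with the GC trend of every library taken out. A real change that runs along GC content is lost in this step too.

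With the trend removed, anastrozole against vehicle gave 6 lower genes (MVD -0.26, FDPS -0.22, MVK -0.20, ACAT2 -0.19, HMGCS1 -0.18 and IDI1 -0.10, adjusted p from 4.4e-09 to 0.039), where 2.89% of all genes passed. E2 against vehicle kept the same 3 genes (IDI1 0.12, FDFT1 0.11 and MVD -0.14), where 7.51% passed, and HMGCS1 moved from 0.08 to 0.00. The combination gave 3 (MVD -0.26, FDPS -0.20 and ACAT2 -0.12), where 6.03% passed. Against E2, anastrozole gave 5 genes, the 4 above with MVD (-0.13, adjusted p = 0.029), where 2.34% passed. With the replicate letter added as a block, MVD did not pass (-0.12, adjusted p = 0.067). Adding anastrozole to E2 gave FDPS (-0.23), IDI1 (-0.19) and MVD (-0.12), where 0.928% passed, and HMGCS1 no longer passed (-0.08, adjusted p = 0.25). HMGCS1 was the 1 gene that passed when E2 was added to anastrozole (0.11, adjusted p = 0.039), where 2.03% passed. The lower FDPS with anastrozole, with and without E2, and the higher IDI1 with E2 alone were called with and without the trend. So was the lower MVD in all 3 comparisons with vehicle, at smaller values for anastrozole and for E2 once the trend was removed. MVK and ACAT2 with anastrozole and FDFT1 with E2 were also called both ways, though these calls depended on single libraries. Against E2, the 4 genes with anastrozole were called both ways, as were FDPS and IDI1 with the combination.

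**Figure D4:**
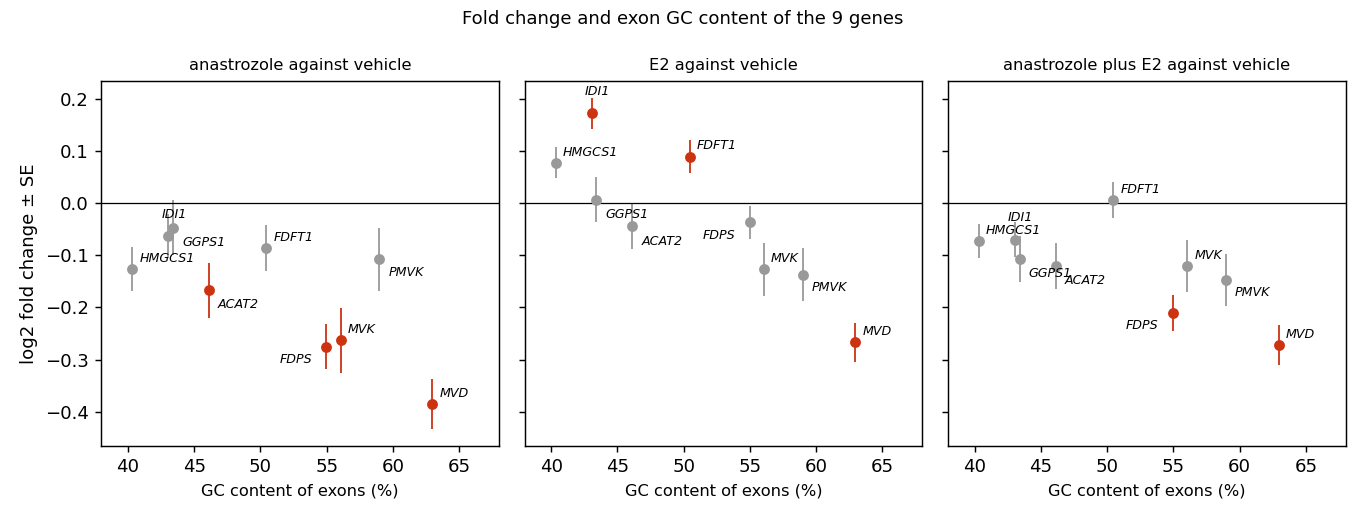
Log2 fold change against vehicle (y axis, ± SE) by GC content of the annotated exons in percent (x axis) for the 9 genes, red where adjusted p was under 0.05. MVD, at 63.0% GC, is the lowest point in all 3 panels, and with E2 the genes run from IDI1 and HMGCS1 at the low-GC side down to MVD, with a rho of -0.83.

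Neighbouring parts of the pathway were read from gene lists. Of 12 enzymes that convert squalene to cholesterol, 6 were lower with anastrozole and none higher, 4 were lower and 2 higher with E2, and 6 were lower with the combination, where 3.67%, 12% and 5.04% of all genes and 11%, 33.5% and 12.9% of comparably abundant genes passed. With the GC trend removed, 8, 3 and 7 were lower and none was higher, where 2.89%, 7.51% and 6.03% of all genes passed. As counted, LSS fell in each comparison (-0.35, -0.22 and -0.27, adjusted p from 1.2e-11 to 9.7e-09). DHCR7, which makes cholesterol from 7-dehydrocholesterol, also fell in each (-0.26, -0.15 and -0.20), as did TM7SF2, a sterol reductase (-0.21, -0.30 and -0.25). For DHCR7 and TM7SF2 the adjusted p ranged from 4.6e-15 to 0.00086. With the GC trend removed DHCR7 with E2 (adjusted p = 0.12) and TM7SF2 with anastrozole (0.2) no longer passed, and the latter was also lost without anastrozole a (0.11).

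Of 14 genes for carbon supply and regulation, 5 were lower with anastrozole, 3 higher and 4 lower with E2, and 3 lower with the combination, to be read against the same shares. With the GC trend removed, 4 were lower with anastrozole, 1 was lower and 0 were higher with E2, and 3 were lower with the combination, beside the 2.89%, 7.51% and 6.03% of all genes that passed with the trend removed, so the count with E2 is near that share. ACLY, which makes cytosolic acetyl-CoA from citrate, fell in all 3 (-0.18, -0.10 and -0.17, adjusted p from 1.3e-05 to 0.0087), and ACSS2, which makes it from acetate, fell with anastrozole (-0.18, adjusted p = 0.023) and the combination (-0.16, adjusted p = 0.0094). SREBF1, the gene of SREBP1, fell in all 3 (-0.17, -0.29 and -0.15, adjusted p from 7.3e-12 to 0.021). INSIG1, which retains SREBPs in the endoplasmic reticulum, rose with E2 (0.14, adjusted p = 0.0071). With the GC trend removed the calls of SREBF1 with anastrozole (adjusted p = 0.56), ACLY with E2 (0.13) and INSIG1 with E2 (0.067) were lost. Several of these calls also depended on single libraries. With anastrozole, ACLY was lost without vehicle c (adjusted p = 0.076) or anastrozole b (0.064). SREBF1 was lost without vehicle a, vehicle c, anastrozole a or anastrozole b (0.15 to 0.56), and ACSS2 without vehicle b, vehicle c, anastrozole a or anastrozole b (0.083 to 0.23). With E2, ACLY was lost without vehicle c (0.068) or E2 c (0.07), and INSIG1 without vehicle a (0.1) or E2 b (0.082). With the combination, SREBF1 was lost without vehicle c (0.078) or libraries b (0.093) or c (0.053) of the combination, and ACSS2 without vehicle c (0.11) or library c of the combination (0.066). SREBF1 with E2 and ACLY with the combination held without each library.

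Of 14 enzymes that use isoprenoid diphosphates, among them the farnesyl and geranylgeranyl transferases and the first enzymes of dolichol and ubiquinone synthesis, edgeR called none in any comparison with vehicle as counted, and with the GC trend removed 0, 1 and 1 genes were lower, again beside shares of 2.89%, 7.51% and 6.03%. At an unadjusted p under 0.05 there were 0, 3 and 2 genes for anastrozole, E2 and the combination, and DESeq2 and limma-voom called 0. Of 5 enzymes of other compartments or paralogs, 1 was higher and 1 lower with E2, where 12% of all genes passed, and edgeR called none with anastrozole or the combination, where DESeq2 and limma-voom also called 0 and 0 had an unadjusted p under 0.05. HMGCLL1, an HMG-CoA lyase-like gene at 1.301 ± 0.358 CPM in vehicle and 2.54 ± 0.375 with E2 (SD, n = 3 each), rose with E2 (0.97, SE 0.27, adjusted p = 0.0046), a call lost without E2 b (0.83, adjusted p = 0.075). Across the 4 lists together, limma-voom called 1 gene with anastrozole where edgeR called 11.

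Across the 12 libraries the 9 genes did not vary as 1 block. Pearson's r of log2 CPM was 0.90 between ACAT2 and FDPS, 0.89 between HMGCS1 and IDI1, 0.83 between MVD and MVK and 0.83 between FDPS and HMGCS1, but 0.02 between IDI1 and MVD and -0.19 between IDI1 and PMVK. HMGCS1 and IDI1 lie at 40.33% and 43.06% GC, MVD and MVK at 62.96% and 56.05%, and ACAT2 and FDPS at 46.12% and 54.98%. IDI1 and GGPS1, at 43.06% and 43.4%, had an r of 0.46. Outside the lists, the genes most like the mean of the 9, of 10976 candidates, were TMEM97 (r = 0.926), ERP29 (0.926), GNG11 (0.918), RUSC1-AS1 (0.909) and PGD (0.904), of which RUSC1-AS1 overlaps FDPS. Those most like MVD were PCNT (0.957), BST2 (0.956), POM121 (0.955), DNPEP (0.954) and MCM3 (0.941). These values describe 12 libraries in 4 groups and were not tested.

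The libraries within a group differed most with anastrozole, where the median coefficient of variation of the 9 genes was 6.26%, against 3.78% in vehicle, 2.95% with the combination and 1.91% with E2. Anastrozole c was the lowest of its group for 6 of the 9 genes and anastrozole a for 2, one of them MVD. Over the whole table, the 776 genes called with anastrozole became 1651 without anastrozole c, 301 without anastrozole b and 246 without anastrozole a. They became 287 without vehicle a and 191 without vehicle c. The share of 3.67% thus depends on single libraries, and the members called also varied, from 2 to 4, when 1 library was left out. Other shares also depended on single libraries. The 280 genes for anastrozole against E2 became 107 without E2 b and 414 without anastrozole c. The 612 for the combination against anastrozole became 234 without combination c and 1706 without anastrozole c. The 1424 for the combination against E2 became 885 without E2 c, and the 1065 for the combination against vehicle 682 without combination b.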

How the data were processed

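RNA-seq was performed in 12 libraries of T47D cells. Groups and replicate letters were taken from the sample labels, and doses and preparation from the labels and methods. The authors used TopHat 2.0.14 with Bowtie 2.2.6 and the hg19 genome, counted reads per gene with htseq-count, and deposited whole-number counts without normalization. The htseq-count version, strand setting and annotation are not given in the sources used here. The labels name polyA RNA and the methods a total RNA kit. Of the 25370 genes, 4238 had 0 counts in all libraries and were removed. The 5 summary lines were left out; reads on no gene took 58.6% to 59.9% of each library, and reads on genes 32.7% to 33.5%.

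Pairwise fits used the 6 libraries concerned and edgeR 4.0.16, run under R 4.3.3 (TMM, robust quasi-likelihood F test, 2-sided, Benjamini-Hochberg over 21132 genes, threshold 0.05), and the interaction used 12. The unadjusted and adjusted p-values in the text come from these fits unless another tool is named. SE was the size of the log2 fold change over the root of the F statistic, and 95% intervals assume normal error. Fits were tested on simulated counts with the same dispersion for every gene and no GC trend. That test does not cover the GC trend or the differing libraries seen here. The 9 other settings were library totals or DESeq2 size factors for scaling, filterByExpr, DESeq2 1.42.0, limma-voom (limma 3.58.1), all 12 libraries in a fit, the replicate letter as a block, a lowess GC trend (span 0.5) as offset, and that offset with the block, beside leaving out each library.

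The table gives symbols only. Of these, 21539 matched GENCODE 44 on GRCh37 directly, 1487 by an older symbol and 2344 not at all. Named genes were the 9 members, at most 4 called genes with the smallest p per list and comparison with vehicle, and the 5 genes most correlated with the members' mean and with MVD. Some genes of the lists are counted but not reported by name here. Members, lists and settings were chosen with earlier results of these data known. Counting error is the only error that the floor of 3 counts covers.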

Additional observations from a re-analysis of the deposited data

Results flagged for a closer look

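The effect of anastrozole differed with and without E2 for MVD, MVK and IDI1 by the interaction test in edgeR. This is 3 of the 9 genes and near the share of comparably abundant genes that passed, 31.5% (10.9% of all genes). The interaction was 0.38 for MVD (log2 scale, adjusted p = 5.4e-08), 0.27 for MVK (adjusted p = 0.0077) and -0.18 for IDI1 (adjusted p = 0.0069). MVD and IDI1 kept the call without each of the 12 libraries in turn. MVK lost it without vehicle a (adjusted p = 0.053), E2 c (0.066) or library a of the combination (0.057). With limma-voom MVD and IDI1 passed and MVK did not (adjusted p = 0.056). MVD, MVK and IDI1 lie at 63.0%, 56.0% and 43.1% GC. The interaction followed GC content over 10860 genes with a Spearman's rho of 0.71, and with the GC trend removed all 3 calls were lost.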

How the results depend on the processing

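No called value changed sign under any setting. With limma-voom the members called fell to 0 for anastrozole against vehicle, 2 for anastrozole against E2 and 2 for the interaction. With the GC trend removed they were 1 for the combination against anastrozole and 0 for the interaction, with and without the block. Leaving out each library gave 2 to 4 members called for anastrozole, 2 to 5 for E2 and 2 to 4 for the combination against vehicle, 3 to 5 for anastrozole against E2, 3 to 5 for the combination against E2, 0 to 2 for the combination against anastrozole and 2 to 3 for the interaction. The lowest count of 2 for anastrozole arose without vehicle a, vehicle c or anastrozole b; E2 reached 5 without vehicle b, the combination 4 without vehicle b, its comparison with E2 5 without combination a, and with anastrozole 2 without anastrozole c. The 4 other lists together had 11 genes called with anastrozole (6 with DESeq2, 1 with limma-voom, 5 to 10 without 1 library), 15 with E2 (7 with the GC trend removed, with and without the block) and 9 with the combination (5 with limma-voom).

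The labels do not say whether the letters a, b and c pair the libraries across groups. Deviations of same-lettered libraries from their group means correlated between -0.20 and 0.18. With so few libraries per group these values cannot tell whether the libraries were paired. With the replicate letter as a block, 5 members were called for the combination against vehicle, HMGCS1 (adjusted p = 0.034) and PMVK (0.025) among them, and 7 with the block and the GC trend removed, GGPS1 (0.042) among them. Over all genes the block changed the calls from 776 to 823 for anastrozole, from 2537 to 2207 for E2, from 1065 to 1439 for the combination and from 280 to 180 for anastrozole against E2. The SEs of the members, between 0.03 and 0.08 on the log2 scale, limit how small a difference passes. The cause of each change was not tested.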
